A study of Homo sapiens with 9 samples.

Results

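Integrins, laminins, collagens and fibronectin were followed across 3 treatments of LNCaP, an androgen-responsive line of human prostate cancer cells. The rule picks genes by symbol and uses no measured value: the integrin alpha and beta chains, the laminin alpha, beta and gamma chains, every collagen chain gene, and FN1. The rule found 81 of the 25142 entries of the expression table, namely 25 integrin chains, 12 laminin chains, 43 collagen chains and FN1. Of these, 25 reached 0.5 RPKM (reads normalised for gene length and library size) in at least 3 libraries and were tested, 56 did not, and 11 of the 56 were listed at 0 in every library.

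All cells were kept for 24 h in medium with 5% serum stripped of steroids by dextran-coated charcoal and were then treated for 18 h. The groups were 1 nM R1881 together with 10 µM MEL-6, 1 nM R1881 alone, and vehicle (DMSO), with 3 biological replicates each. R1881 is a synthetic androgen, and for MEL-6 the labels give the code name only. MEL-6 was given only together with R1881, so its action without androgen was not measured, and all groups come from a single cell line that grows without stroma. Estimated depths ran from 6.64 to 12.0 M reads (M, mega) in the R1881 with MEL-6 libraries, 13.0 to 18.6 M in the R1881 libraries and 7.19 to 11.1 M in the vehicle libraries, so that 3 reads in a gene of 5 kb were worth 0.0322 to 0.0903 RPKM. As a check of the cells, all 10 luminal markers reached 0.5 RPKM, among them KLK3 and KRT8. Their summed level was 1786 to 1867 RPKM in R1881 with MEL-6 libraries, 5261 to 5462 RPKM in R1881 libraries and 1321 to 1398 RPKM in vehicle libraries. None of 6 basal markers reached it, and KRT5, TP63 and KRT17 were listed at 0 throughout.

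Integrins are transmembrane receptors made of an alpha and a beta chain, and the pairing decides what they bind: alpha5 and alphaV pairs bind fibronectin and other RGD-containing proteins, alpha3 and alpha6 pairs bind laminins, and alpha2 pairs bind collagens. Laminins are cross-shaped trimers of an alpha, a beta and a gamma chain that form the basement membrane sheet, and collagens are triple helices that build fibrils, networks and the fine filaments around them. In the prostate gland, luminal cells sit on basal cells and a basement membrane, and prostate cancer is known for losing many of these chains while retaining the alpha6 chain.

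With MEL-6 added to R1881, the matrix genes were mostly higher and 1 receptor chain was lower. Against R1881 alone, 16 of the 25 tested members were higher and 1, the integrin chain ITGAV, was lower (limma on log2(RPKM + 0.5), Benjamini-Hochberg adjusted p under 0.05). Of all 13295 tested genes, 31.4% were higher and 20.6% were lower in that comparison. The members' median log2 difference was 0.53, beside 0.075 over all tested genes. The calls comprised 9 of 11 collagens, FN1, 2 of 5 laminins and 4 of 8 integrins on the higher side. With the libraries rescaled by the median of their gene ratios the split was 13 higher and 3 lower, beside 25.6% higher and 27.2% lower among all tested genes.

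R1881 alone against vehicle gave 3 members higher and 10 lower, beside 14.5% higher and 31.3% lower among all tested genes. The higher ones were ITGAV, LAMC1 and LAMA3, and the lower ones were FN1, 6 collagens, the integrins ITGA2 and ITGA6, and LAMB1. The members' median was -0.22, beside -0.12 over all tested genes, and that general shift became -0.02 with median-of-ratios scaling, under which the split was 5 higher and 10 lower, beside 20.3% and 19.8% of all tested genes. A floor of 1 RPKM in 3 libraries left 22 members, without COL5A1, COL9A3 and LAMB1. Of these, 3 were higher and 7 lower, beside 15.3% and 32.4% of all genes in that fit. R1881 with MEL-6 against vehicle gave 10 members higher and 4 lower, beside 17.2% and 20.8% of all tested genes, with medians of 0.16 and -0.01. The 3 comparisons use the same 9 libraries, so a value in the R1881 libraries moves the first 2 comparisons in opposite directions at once. In RNA from whole wells, fewer cells that make a transcript and less of it per cell cannot be told apart. Of the 25 members, COL16A1 reached the floor only through the R1881 with MEL-6 libraries and COL5A1 only through vehicle, so that both had to differ between groups. Among the other 23 members, 15 were higher and 1 lower in R1881 with MEL-6 against R1881, 3 higher and 9 lower in R1881 against vehicle, and 9 higher and 4 lower in R1881 with MEL-6 against vehicle. These 23 still include ITGA2, COL5A2, COL9A3 and LAMB1, which were below the floor in every R1881 library and entered through the other groups. The floor therefore also bears on their calls in the first 2 comparisons. In a fit with no floor on low values, those calls were kept.

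**Figure D1:**
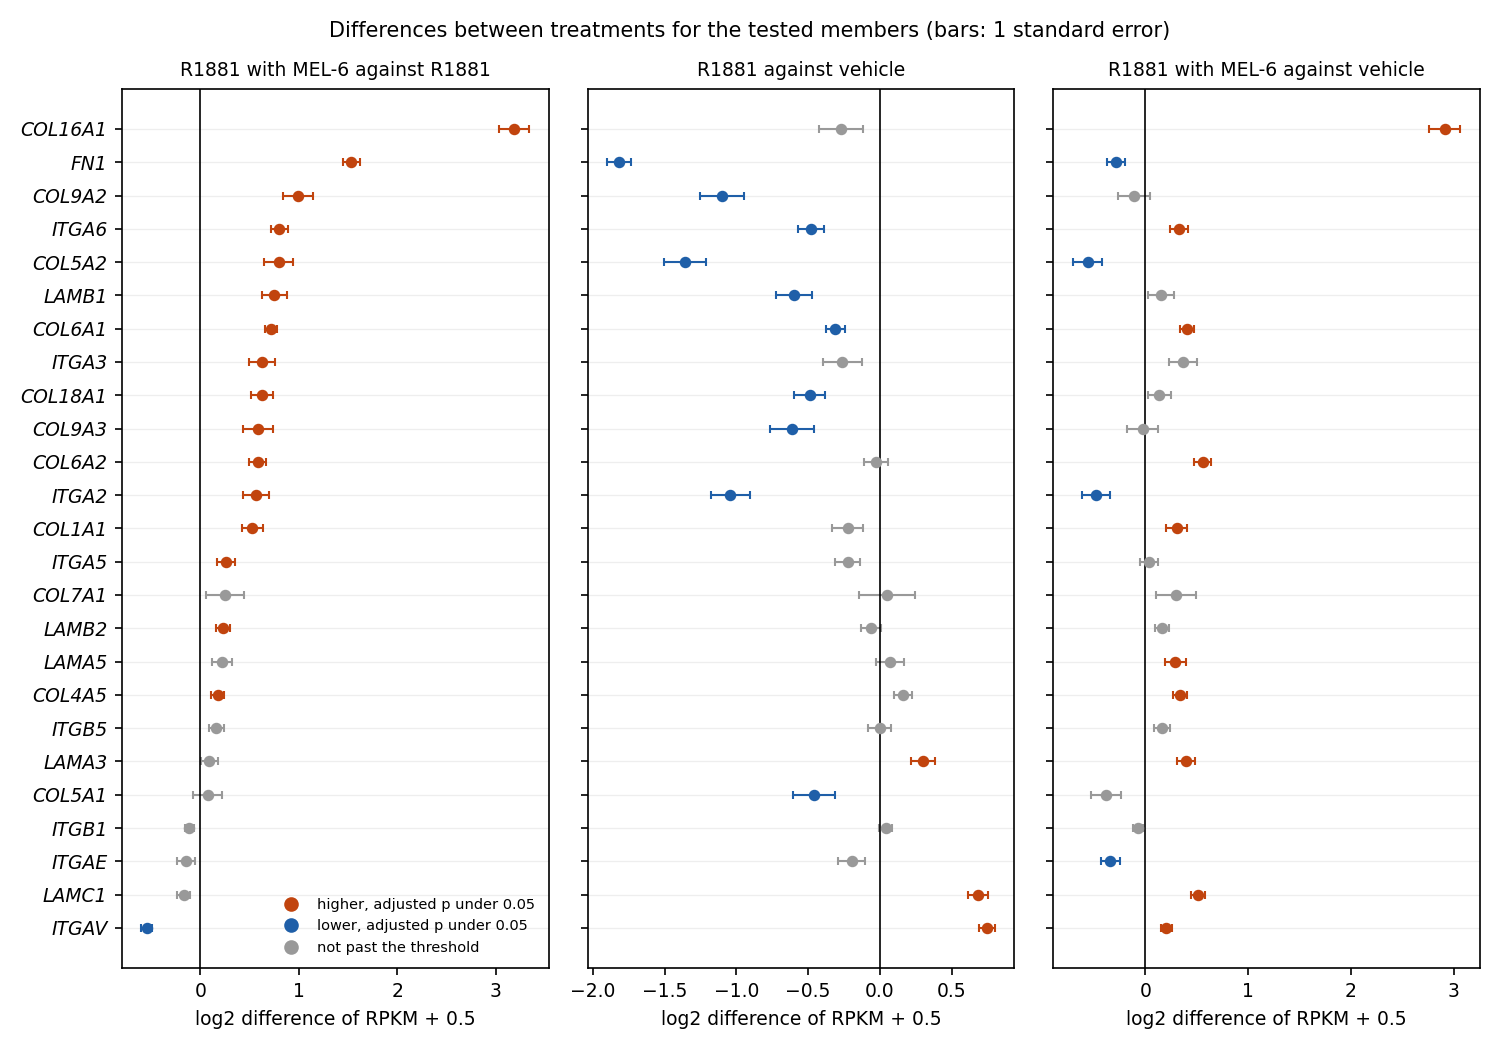
Log2 difference of RPKM + 0.5 for the 25 tested members in the 3 comparisons, with each member on its own row and bars of 1 standard error. Points are coloured by their limma call. The rows run from COL16A1 (3.19) at the top to ITGAV (-0.54) at the bottom, in the order of the first panel. Each panel has its own horizontal scale.

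The receptor side was dominated by few chains. ITGB1, the beta chain shared by the fibronectin, laminin and collagen receptors, was the highest member of all with 101 ± 1.31 RPKM in R1881 with MEL-6 cells, 109 ± 0.57 RPKM in R1881 cells and 106 ± 4.57 RPKM in vehicle cells (SD, n = 3 each). It made up 87.6%, 89.8% and 89.3% of the summed beta chain level in the same order of groups. Its log2 difference was -0.11 ± 0.046 for R1881 with MEL-6 against R1881 (95% interval -0.21 to -0.01, limma adjusted p = 0.0629) and 0.04 ± 0.046 for R1881 against vehicle (interval -0.06 to 0.14, adjusted p = 0.498), so neither passed. ITGB5, which pairs only with alphaV, was at 13.5 ± 1.49, 11.9 ± 0.774 and 11.9 ± 0.0419 RPKM in R1881 with MEL-6, R1881 and vehicle cells and passed in no comparison. With the median-of-ratios scaling ITGB1 passed as lower in the first comparison and higher in the second.

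ITGAV (chr2:187454790-187545628 on GRCh37), the alpha chain of the vitronectin and fibronectin receptors, was the alpha chain with the highest level. Its values were 23.8, 23.3 and 23.2 RPKM in R1881 with MEL-6 libraries, 36.5, 33.8 and 32.8 RPKM in R1881 libraries and 20.5, 20.9 and 19.4 RPKM in vehicle libraries. The R1881 libraries stood above all others, and the 3 groups did not overlap. It was lower in R1881 with MEL-6 than in R1881 by a log2 difference of -0.54 ± 0.055 (adjusted p = 1.85e-05), and higher in R1881 than in vehicle by 0.75 ± 0.055 (adjusted p = 2e-06). R1881 with MEL-6 was above vehicle by 0.20 ± 0.055 (adjusted p = 0.0141), a call that was lost without vehicle replicate 3.

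ITGA6 (chr2:173292314-173371181), which pairs with beta1 or beta4 as a laminin receptor, was lowest in R1881 cells and highest in R1881 with MEL-6 cells. It was at 15.8, 12.4 and 12.3 RPKM in R1881 with MEL-6 libraries, 7.73, 7.24 and 7.4 RPKM in R1881 libraries and 10.2, 10.8 and 10.7 RPKM in vehicle libraries. All R1881 libraries lay below both other groups. The log2 difference was 0.80 ± 0.091 for R1881 with MEL-6 against R1881 (adjusted p = 4.11e-05), -0.48 ± 0.091 for R1881 against vehicle (adjusted p = 0.00168) and 0.33 ± 0.091 for R1881 with MEL-6 against vehicle (adjusted p = 0.0168). The last call was lost without vehicle replicate 1.

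ITGA2, the alpha chain of a collagen receptor, was low, at 0.666, 0.833 and 0.939 RPKM in R1881 with MEL-6 libraries, 0.46, 0.34 and 0.356 RPKM in R1881 libraries and 1.44, 1.2 and 1.33 RPKM in vehicle libraries. The groups did not overlap, with R1881 with MEL-6 between the others. R1881 with MEL-6 was above R1881 by 0.57 ± 0.14 and R1881 below vehicle by -1.04 ± 0.14 (adjusted p = 0.00533 and 0.000136). Against vehicle, R1881 with MEL-6 was lower by -0.48 ± 0.14 (adjusted p = 0.0189), a call that was lost without R1881 with MEL-6 replicate 1 or vehicle replicate 1. ITGA3, a laminin receptor chain, was at 2.49, 3.09 and 3.73 RPKM in R1881 with MEL-6 libraries, 1.77, 1.6 and 2.09 RPKM in R1881 libraries and 2.18, 2.46 and 2.17 RPKM in vehicle libraries, and passed only for R1881 with MEL-6 against R1881 (0.63 ± 0.14, adjusted p = 0.00291).

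ITGA5, the alpha chain of the classical fibronectin receptor, was at 8.68 ± 0.839 RPKM in R1881 with MEL-6 cells, 7.15 ± 0.591 RPKM in R1881 cells and 8.42 ± 0.483 RPKM in vehicle cells. Its difference of 0.26 ± 0.087 between R1881 with MEL-6 and R1881 (adjusted p = 0.0274) passed under 11 of 17 alternative settings and was lost, among others, without R1881 with MEL-6 replicate 2 or 3 or R1881 replicate 1 or 2. ITGAE, known from lymphocytes of epithelia, where it binds E-cadherin, was at 3.52 ± 0.3 RPKM in R1881 with MEL-6 cells, 3.95 ± 0.337 RPKM in R1881 cells and 4.59 ± 0.324 RPKM in vehicle cells, and was called only for R1881 with MEL-6 against vehicle (-0.34 ± 0.093, adjusted p = 0.0151). That call was lost without R1881 with MEL-6 replicate 3 or vehicle replicate 1. The kinase gene GSG2 lies within the ITGAE span and had 3.54 to 4.13 RPKM in R1881 with MEL-6, 3.94 to 4.75 RPKM in R1881 and 5.53 to 6.66 RPKM in vehicle libraries. Since no source used here says whether strand was kept, reads of such overlapping genes cannot be told apart.

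**Figure D2:**
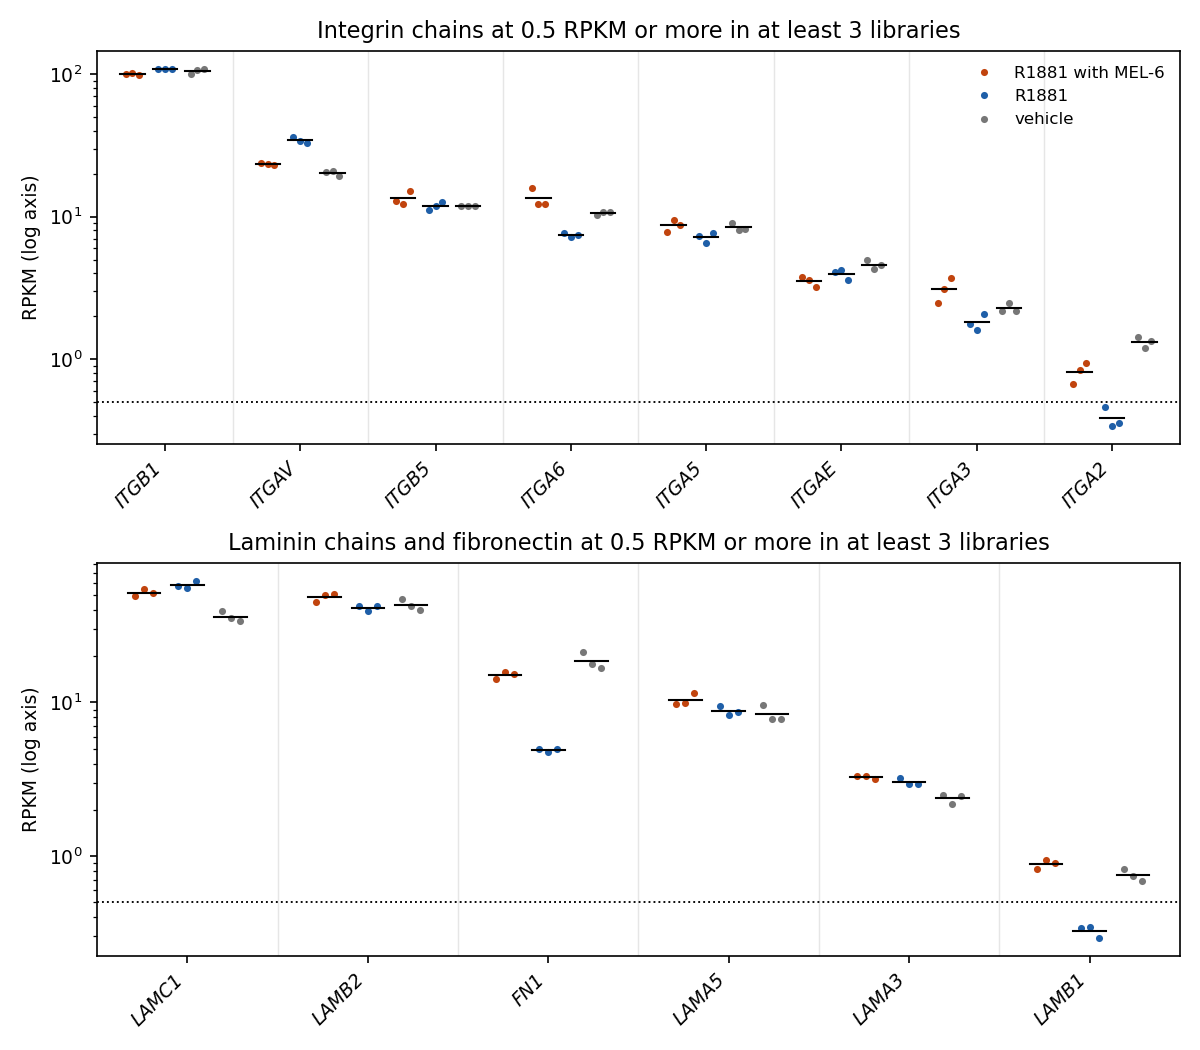
RPKM of the 8 tested integrin chains (top) and of the 5 tested laminin chains with FN1 (bottom) on a log axis. Each point is a library, each bar the mean of 3 libraries, and the dotted line the floor of 0.5 RPKM. ITGAV and LAMC1 are highest in R1881 libraries, while ITGA6, ITGA2, FN1 and LAMB1 are lowest there.

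As shares of the summed alpha chain level, ITGAV was larger and ITGA6 smaller in R1881 cells than in the other groups. ITGAV made up 43.5% ± 0.396 of it in R1881 with MEL-6 cells, 61.5% ± 1.25 in R1881 cells and 42.0% ± 0.960 in vehicle cells (SD, n = 3). ITGA6 made up 25.0% ± 3.14, 13.4% ± 0.184 and 21.9% ± 0.961 in the same order. The summed level itself was 53.8 ± 1.20 RPKM, 55.8 ± 2.35 RPKM and 48.3 ± 0.858 RPKM. Within a library, ITGAV was 1.76 ± 0.221 times ITGA6 in R1881 with MEL-6 cells, 4.60 ± 0.155 times in R1881 cells and 1.92 ± 0.0984 times in vehicle cells.

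**Figure D3:**
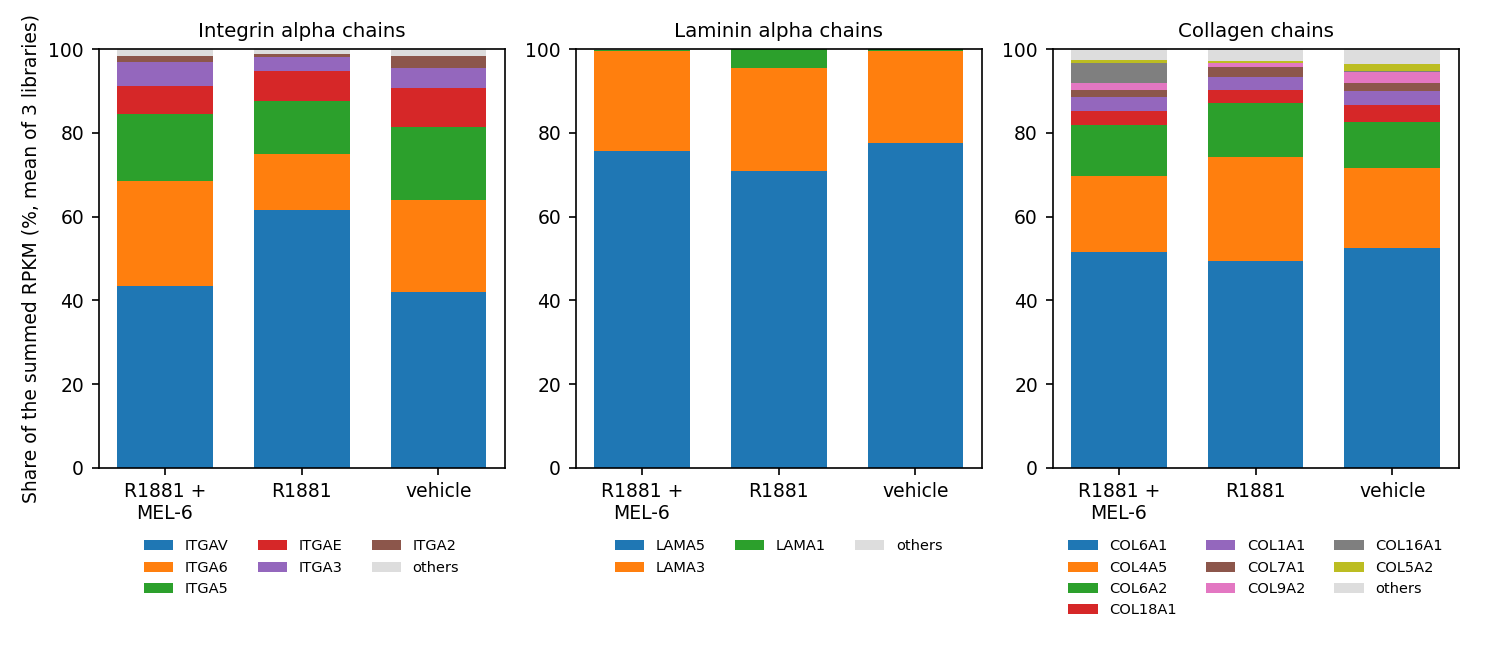
Share of the summed RPKM of the 17 integrin alpha, 5 laminin alpha and 43 collagen genes taken by each chain, as the mean of 3 libraries per group, without error bars. Chains that reach 1% of their class in a group are drawn by name. ITGAV takes 61.5% of the alpha chains in R1881 cells, and COL16A1 takes 4.70% of the collagens in R1881 with MEL-6 cells.

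On the ligand side, FN1 (chr2:216226692-216300791) gave the clearest difference of the abundant genes. FN1 encodes fibronectin, the soluble and fibrillar glycoprotein to which alpha5 and alphaV integrins bind. It was at 14.1, 15.8 and 15.4 RPKM in R1881 with MEL-6 libraries, 4.95, 4.76 and 4.95 RPKM in R1881 libraries and 21.2, 17.8 and 16.7 RPKM in vehicle libraries. The R1881 libraries lay far below the rest, and no groups overlapped. R1881 with MEL-6 was higher than R1881 by 1.53 ± 0.085 on the log2 scale, a ratio of means of 3.09 (adjusted p = 2.45e-07), and R1881 was lower than vehicle by -1.82 ± 0.085 (adjusted p = 6.88e-08). R1881 with MEL-6 was below vehicle by -0.28 ± 0.085 (adjusted p = 0.0244). This last call was lost without R1881 with MEL-6 replicate 1, without vehicle replicate 1, or when only the 6 libraries of these groups were fitted. Set against its receptor chain ITGAV, the FN1 level was 0.645 ± 0.0446 times as high in R1881 with MEL-6 cells, 0.143 ± 0.00785 times in R1881 cells and 0.916 ± 0.102 times in vehicle cells.

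Among laminins, the expressed chains were LAMA5 and LAMA3, LAMB2 with little LAMB1, and LAMC1, which assemble into the alpha5 laminins of mature epithelia and into alpha3 laminins. LAMC1 (chr1:182992595-183114727) was at 49.3, 54.7 and 51.6 RPKM in R1881 with MEL-6 libraries, 57.7, 55.3 and 62.1 RPKM in R1881 libraries and 39.4, 35.6 and 33.7 RPKM in vehicle libraries. Both groups with R1881 stood above vehicle. The log2 difference was 0.68 ± 0.07 for R1881 against vehicle (adjusted p = 2.42e-05) and 0.51 ± 0.07 for R1881 with MEL-6 against vehicle (adjusted p = 0.000293). Between R1881 with MEL-6 and R1881 it was -0.17 ± 0.07 and did not pass (interval -0.32 to -0.01, adjusted p = 0.0652), although it passed with median-of-ratios scaling or without vehicle replicate 1.

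LAMB1 was at 0.822, 0.947 and 0.903 RPKM in R1881 with MEL-6 libraries, 0.34, 0.343 and 0.293 RPKM in R1881 libraries and 0.824, 0.737 and 0.69 RPKM in vehicle libraries. Only the R1881 libraries were separate and low, with differences of 0.75 ± 0.13 for R1881 with MEL-6 against R1881 and -0.60 ± 0.13 for R1881 against vehicle (adjusted p = 0.000607 and 0.00315). LAMB2, the other beta chain, made up 97.5%, 98.9% and 98.0% of the beta level in R1881 with MEL-6, R1881 and vehicle cells. It was at 48.7 ± 2.98 RPKM in R1881 with MEL-6 cells, 41.5 ± 1.95 RPKM in R1881 cells and 43.4 ± 3.65 RPKM in vehicle cells, and its difference of 0.23 ± 0.071 in the first comparison (adjusted p = 0.0209) was lost without R1881 with MEL-6 replicate 2 or 3, without R1881 replicate 2, or with median-of-ratios scaling.

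LAMA3, an alpha chain of epithelial adhesion sites, was higher than in vehicle both with R1881 and MEL-6 (0.40 ± 0.085, adjusted p = 0.00449) and with R1881 alone (0.30 ± 0.085, adjusted p = 0.0144). Its values were 3.33, 3.31 and 3.18 RPKM in R1881 with MEL-6 libraries, 3.22, 2.96 and 2.93 RPKM in R1881 libraries and 2.48, 2.17 and 2.47 RPKM in vehicle libraries. The call for R1881 alone was lost without R1881 replicate 1 or vehicle replicate 2. LAMA5, the alpha chain of most mature epithelial basement membranes, was at 10.4 ± 0.993, 8.86 ± 0.595 and 8.43 ± 1.08 RPKM in R1881 with MEL-6, R1881 and vehicle cells and passed only for R1881 with MEL-6 against vehicle (0.29 ± 0.098, adjusted p = 0.0371). That call was lost without R1881 with MEL-6 replicate 2 or 3, R1881 replicate 3, or vehicle replicate 2 or 3. An unnamed locus, LOC100506553, overlaps LAMA5 and had 4.90 to 9.39 RPKM in R1881 with MEL-6, 4.13 to 6.28 RPKM in R1881 and 4.81 to 10.6 RPKM in vehicle libraries.

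The collagen transcripts together summed to 101 ± 3.52 RPKM in R1881 with MEL-6 cells, 64.0 ± 2.12 RPKM in R1881 cells and 74.8 ± 3.59 RPKM in vehicle cells (SD, n = 3). Type VI chains, which form beaded microfilaments, made up most of this. COL6A1 (chr21:47401663-47424963) was at 55.9, 51.5 and 49.5 RPKM in R1881 with MEL-6 libraries, 31.7, 31.3 and 31.7 RPKM in R1881 libraries and 38.8, 36.6 and 42.5 RPKM in vehicle libraries. The groups did not overlap. The differences were 0.72 ± 0.065 for R1881 with MEL-6 against R1881 (adjusted p = 7.87e-06), -0.31 ± 0.065 for R1881 against vehicle (adjusted p = 0.00294) and 0.41 ± 0.065 for R1881 with MEL-6 against vehicle (adjusted p = 0.000798).

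COL6A2, its partner chain 93069 bases away on chromosome 21, was at 11.9, 12 and 13.7 RPKM in R1881 with MEL-6 libraries, 8.3, 7.41 and 8.84 RPKM in R1881 libraries and 8.2, 7.93 and 8.83 RPKM in vehicle libraries. It was higher with MEL-6 than in R1881 by 0.58 ± 0.083 and than in vehicle by 0.56 ± 0.083 (adjusted p = 0.000201 and 0.000525), while R1881 and vehicle overlapped. COL6A1 was 3.62 to 4.71 times COL6A2 in R1881 with MEL-6, 3.58 to 4.23 times in R1881 and 4.62 to 4.82 times in vehicle libraries. COL6A3, the chain that the common type VI heterotrimer also needs, reached at most 0.00757 RPKM in any library.

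COL16A1 (chr1:32117848-32169768), a fibril-associated collagen, differed most of all members. It was at 5.9, 4.42 and 3.99 RPKM in R1881 with MEL-6 libraries, 0.0763, 0.0665 and 0.0744 RPKM in R1881 libraries and 0.219, 0.145 and 0.211 RPKM in vehicle libraries. All R1881 with MEL-6 libraries were far above the other 6, which lay below the floor. In estimated reads these were 241, 324 and 256 in R1881 with MEL-6, 6.38, 5.32 and 8.51 in R1881, and 14.8, 6.38 and 11.7 in vehicle, so the low levels rest on few reads. The ratio of means was 65.9 against R1881 and 24.9 against vehicle. The log2 difference, which the added 0.5 RPKM shrinks, was 3.19 against R1881 and 2.92 against vehicle, and the first became 4.80 with 0.1 added instead. Because the gene entered the main fit through its high group alone, the test is given from a fit with no floor on low values, where the standard error was 0.13 (limma adjusted p = 6.89e-07 and 3.67e-06). In that fit R1881 against vehicle gave -0.27 ± 0.13 (adjusted p = 0.169). These 2 groups did not overlap, with a ratio of means of 0.378. With 0.1 added in the fit with the floor, R1881 was called lower than vehicle (-0.75, limma adjusted p = 0.0311).

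Fibril-forming chains were low. COL5A2, a chain of type V collagen that seeds fibrils, was at 0.942, 0.805 and 0.601 RPKM in R1881 with MEL-6 libraries, 0.267, 0.257 and 0.18 RPKM in R1881 libraries and 1.29, 1.31 and 1.56 RPKM in vehicle libraries. The groups did not overlap, with R1881 lowest and vehicle highest. The differences were 0.80 ± 0.15, -1.36 ± 0.15 and -0.56 ± 0.15 for R1881 with MEL-6 against R1881, R1881 against vehicle and R1881 with MEL-6 against vehicle (adjusted p = 0.00105, 3.42e-05 and 0.0121). COL5A1, which makes the same trimer, was at 0.271, 0.43 and 0.414 RPKM in R1881 with MEL-6 libraries, 0.34, 0.278 and 0.351 RPKM in R1881 libraries and 0.572, 0.615 and 0.708 RPKM in vehicle libraries. In the fit without a floor it was lower than in vehicle both in R1881 with MEL-6 (-0.38 ± 0.095, limma adjusted p = 0.0193) and in R1881 (-0.46 ± 0.095, adjusted p = 0.00634). With the floor, only the R1881 call passed, and it was lost without any 1 of the R1881 libraries or without vehicle replicate 2 or 3. The locus LOC100506554 lies within the COL5A1 span and was listed at 0 in the R1881 with MEL-6 libraries, and reached 0.381 RPKM in R1881 and 0.983 RPKM in vehicle libraries. Its part in the COL5A1 values was not tested.

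COL1A1, a chain of type I collagen, was at 3.15, 3.25 and 3.45 RPKM in R1881 with MEL-6 libraries, 2.21, 2.05 and 2.1 RPKM in R1881 libraries and 2.84, 2.75 and 2.14 RPKM in vehicle libraries. It was higher with MEL-6 than in R1881 by 0.53 ± 0.11 (adjusted p = 0.00176). Its difference from vehicle, 0.31 ± 0.11 (adjusted p = 0.0426), held under 6 of 17 alternative settings and was lost without any 1 library except vehicle replicate 1. COL1A2, the other chain of type I collagen, was listed at 0 in every library. LOC100506522 overlaps COL1A1 and reached 1.68 RPKM in a vehicle library, and was listed at 0 in the libraries of both other groups. ACTA2, a contractile marker of myofibroblasts, had 7.08, 6.21 and 6.25 RPKM in R1881 with MEL-6 libraries, 1.497, 1.77 and 2.04 RPKM in R1881 libraries and 2.32, 2.62 and 2.08 RPKM in vehicle libraries. Of the 10 fibroblast and muscle markers, 2 (ACTA2 and TAGLN) reached the floor. TAGLN had 3.07 to 3.88 RPKM in R1881 with MEL-6, 2.29 to 3.17 RPKM in R1881 and 2.11 to 2.61 RPKM in vehicle libraries, with R1881 and vehicle overlapping, and LUM was highest in a vehicle library, at 0.354 RPKM. The summed level of the list, most of it ACTA2 and TAGLN, was 9.48 to 11.2 RPKM in R1881 with MEL-6, 3.85 to 5.11 RPKM in R1881 and 4.79 to 5.15 RPKM in vehicle libraries. PDGFRA, FAP and POSTN were listed at 0 in all 9 libraries. DCN, THY1, PDGFRB and MYH11 reached at most 0.0536, 0.0608, 0.0306 and 0.0803 RPKM, and PDGFRB and MYH11 were above 0 in every library. The part of these markers in the collagen result was not tested.

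COL9A2 and COL9A3 encode chains of type IX collagen, a cartilage collagen that coats fibrils. COL9A2 was at 2.26, 1.61 and 1.35 RPKM in R1881 with MEL-6 libraries, 0.532, 0.589 and 0.718 RPKM in R1881 libraries and 1.85, 1.75 and 2.06 RPKM in vehicle libraries. COL9A3 was at 0.445, 0.56 and 0.564 RPKM, 0.152, 0.216 and 0.177 RPKM and 0.604, 0.399 and 0.633 RPKM in the same order of groups, from 5.17 to 16.7 estimated reads per library. For both, the R1881 libraries lay below the rest while the other groups overlapped. R1881 with MEL-6 against R1881 gave 0.99 ± 0.15 for COL9A2 and 0.58 ± 0.15 for COL9A3 (adjusted p = 0.00036 and 0.00905), and R1881 against vehicle gave -1.10 ± 0.15 and -0.61 ± 0.15 (adjusted p = 0.000225 and 0.00852). COL9A1, the first chain of this trimer, was listed at 0 throughout.

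COL18A1, a basement membrane collagen whose end fragment is endostatin, was at 3.2, 3.22 and 3.54 RPKM in R1881 with MEL-6 libraries, 2.28, 1.73 and 1.94 RPKM in R1881 libraries and 3.36, 2.68 and 2.9 RPKM in vehicle libraries. R1881 with MEL-6 was above R1881 by 0.63 ± 0.11 and R1881 below vehicle by -0.49 ± 0.11 (adjusted p = 0.000845 and 0.00467), and R1881 with MEL-6 overlapped vehicle. COL7A1, which forms the anchoring fibrils under epithelia, was at 2.1, 1.98 and 1.37 RPKM in R1881 with MEL-6 libraries, 1.71, 1.55 and 1.09 RPKM in R1881 libraries and 1, 1.37 and 1.8 RPKM in vehicle libraries. Its groups overlapped in every comparison, and none passed.

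COL4A5 (chrX:107683154-107940775), a chain of the type IV network of basement membranes, was the second collagen by level. It was at 17.4, 19.1 and 17.9 RPKM in R1881 with MEL-6 libraries, 17.2, 15.1 and 15.6 RPKM in R1881 libraries and 14.7, 14.4 and 13.5 RPKM in vehicle libraries. R1881 with MEL-6 was above vehicle by 0.34 ± 0.066 (adjusted p = 0.00265). The difference from R1881, 0.18 ± 0.066 (adjusted p = 0.0429), held under only 8 of 17 alternative settings and was lost, among others, without R1881 with MEL-6 replicate 2 or 3, R1881 replicate 2 or 3, or vehicle replicate 2. COL4A6, whose entry ends 449 bases before that of COL4A5 begins on the X chromosome, stayed at 0.278 to 0.402 RPKM in R1881 with MEL-6, 0.185 to 0.335 RPKM in R1881 and 0.18 to 0.237 RPKM in vehicle libraries. COL4A1 and COL4A2, the chains of the common type IV trimer, reached at most 0.0164 and 0.148 RPKM.

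**Figure D4:**
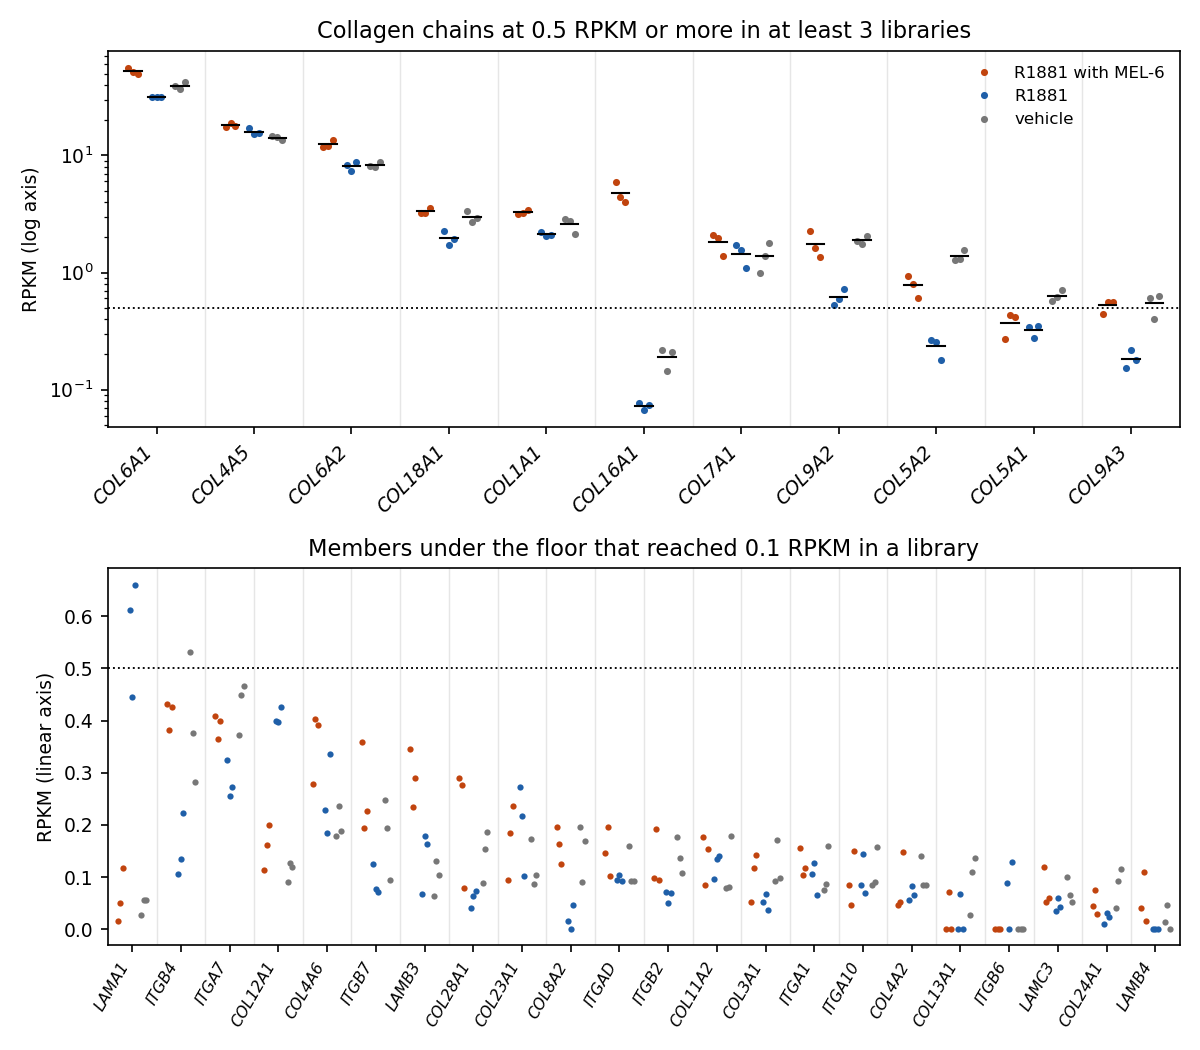
RPKM of the 11 tested collagen chains on a log axis (top, with bars for the mean of 3 libraries) and of the 22 members under the floor that reached 0.1 RPKM in some library, on a linear axis (bottom). Each point is a library and the dotted line is the floor of 0.5 RPKM. COL16A1 is at 3.99 RPKM or more in the R1881 with MEL-6 libraries alone, and LAMA1 and COL12A1 are highest in R1881 libraries.

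The 56 members under the floor were 17 integrins, 7 laminins and 32 collagens. Just outside it, LAMA1, a laminin alpha chain best known from early embryos, was at 0.0153, 0.0511 and 0.117 RPKM in R1881 with MEL-6 libraries, 0.612, 0.445 and 0.659 RPKM in R1881 libraries and 0.0276, 0.0566 and 0.0563 RPKM in vehicle libraries. The R1881 libraries were apart, with 82.2, 57.1 and 121 estimated reads. In the fit without a floor, LAMA1 was lower in R1881 with MEL-6 than in R1881 by -0.93 ± 0.093 and higher in R1881 than in vehicle by 0.97 ± 0.093 (limma adjusted p = 9.49e-05 and 9.08e-05). COL12A1, a fibril-associated collagen, was at 0.113, 0.161 and 0.2 RPKM in R1881 with MEL-6 libraries, 0.399, 0.398 and 0.426 RPKM in R1881 libraries and 0.0907, 0.128 and 0.12 RPKM in vehicle libraries, with -0.47 ± 0.062 and 0.57 ± 0.062 in that fit (adjusted p = 0.000477 and 0.000193). Just inside the floor, COL9A3 and COL5A1 peaked at 0.633 and 0.708 RPKM.

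A further 5 low members passed in some comparison of the fit without a floor. Over all genes in that fit, 22.4% were higher and 14.1% lower in R1881 with MEL-6 against R1881. R1881 against vehicle gave 10.2% and 20.8%, and R1881 with MEL-6 against vehicle 11.5% and 13.3%. Of the 70 members in that fit, 19 were higher and 3 lower in the first comparison. The second gave 5 and 13, and the third 9 and 5. ITGB4, which pairs with alpha6 in hemidesmosomes, was at 0.382 to 0.431 RPKM in R1881 with MEL-6, 0.105 to 0.222 RPKM in R1881 and 0.282 to 0.531 RPKM in vehicle libraries. It was higher with MEL-6 than in R1881 (0.49 ± 0.11, adjusted p = 0.0081) and lower in R1881 than in vehicle (-0.45 ± 0.11, adjusted p = 0.0139). COL8A2 had 0.34 ± 0.073 and -0.32 ± 0.073 in the same comparisons (adjusted p = 0.00594 and 0.0101), from a peak of 0.197 RPKM. LAMB3, which joins LAMA3 in the laminin of hemidesmosomes, was higher with MEL-6 than in R1881 (0.31 ± 0.086, adjusted p = 0.0201) and than in vehicle (0.40 ± 0.086, adjusted p = 0.00999) at no more than 0.345 RPKM. ITGB7 passed as higher with MEL-6 than in R1881 (0.36 ± 0.1, adjusted p = 0.0273), and ITGA7 as lower in R1881 than in vehicle (-0.24 ± 0.07, adjusted p = 0.028). Few estimated reads lie behind such calls. ITGB7 had 6.67 to 6.83 per library in R1881 with MEL-6 and 2.92 to 4.91 in R1881. COL8A2 had at most 9.15 in R1881 with MEL-6, 4.06 in R1881 and 10.2 in vehicle libraries.

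The rest stayed low in every group. The other integrins that reached 0.1 RPKM were ITGA1, ITGA10, ITGAD, ITGB2 and ITGB6, up to 0.197 RPKM, and those below were ITGA4, ITGA8, ITGA9, ITGA11, ITGAL, ITGAM, ITGB3 and ITGB8. ITGAX, a myeloid chain, was listed at 0, and the leukocyte beta chain ITGB2 peaked at 0.192 RPKM. Of the other laminins, LAMB4 and LAMC3 reached 0.111 and 0.119 RPKM, and LAMA2 and LAMA4 at most 0.0255 RPKM. Of the other collagens, COL3A1, COL11A2, COL13A1, COL23A1, COL24A1 and COL28A1 peaked between 0.115 and 0.291 RPKM. COL2A1, COL4A3, COL4A4, COL5A3, COL6A6, COL8A1, COL10A1, COL17A1, COL22A1 and COL27A1 stayed at or below 0.0959 RPKM. Listed at 0 beside COL1A2 and COL9A1 were COL11A1, COL14A1, COL15A1, COL19A1, COL20A1, COL21A1, COL25A1 and COL29A1.

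The sequence before the start of 4 genes is shown because these genes span the range of responses: FN1 and ITGA6, lowest with R1881, COL16A1, high with MEL-6, and ITGAV, highest with R1881. Each is the 250 bases before a RefSeq transcript start on GRCh38.p14 (the table's own build is GRCh37), read in the direction of the gene: FN1 chr2:215436069-215436318 on the minus strand, COL16A1 chr1:31704018-31704267 on the minus strand, ITGA6 chr2:172427086-172427335 on the plus strand and ITGAV chr2:186589806-186590055 on the plus strand. Capitals mark matches, on either strand, to 4 short motifs: the cyclic AMP response element TGACGTCA, the ATF4 and C/EBP composite TGATGNAA, the GC box GGGCGG and the TATA box TATAAA.
FN1: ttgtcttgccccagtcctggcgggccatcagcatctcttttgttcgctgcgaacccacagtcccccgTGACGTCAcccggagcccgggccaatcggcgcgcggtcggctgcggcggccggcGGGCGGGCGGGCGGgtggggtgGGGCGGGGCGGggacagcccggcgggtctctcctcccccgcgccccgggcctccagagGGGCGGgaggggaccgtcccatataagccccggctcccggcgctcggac
COL16A1: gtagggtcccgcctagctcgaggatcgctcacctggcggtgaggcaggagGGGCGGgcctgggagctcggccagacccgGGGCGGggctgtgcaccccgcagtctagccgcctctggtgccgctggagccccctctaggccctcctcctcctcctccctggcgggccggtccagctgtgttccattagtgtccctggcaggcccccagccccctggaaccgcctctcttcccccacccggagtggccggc
ITGA6: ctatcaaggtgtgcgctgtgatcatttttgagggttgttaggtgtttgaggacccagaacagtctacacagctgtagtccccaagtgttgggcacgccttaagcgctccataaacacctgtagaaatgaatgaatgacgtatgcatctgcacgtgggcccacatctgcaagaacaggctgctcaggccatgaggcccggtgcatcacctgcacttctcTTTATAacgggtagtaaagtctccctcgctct
ITGAV: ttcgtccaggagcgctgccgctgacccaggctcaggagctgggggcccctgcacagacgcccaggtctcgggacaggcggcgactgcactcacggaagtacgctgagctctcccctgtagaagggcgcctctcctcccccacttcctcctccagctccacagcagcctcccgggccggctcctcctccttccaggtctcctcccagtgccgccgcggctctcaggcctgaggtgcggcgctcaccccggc

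The FN1 window held a cyclic AMP response element 183 bases before the start and 6 GC boxes, some of which overlap each other. COL16A1 held 2 GC boxes. This ITGA6 window, 1 of 2 listed for the gene, held a TATA box read on the reverse strand, and the ITGAV window, also 1 of 2, held none of the 4 motifs. The other ITGA6 window, not shown, held GC boxes 217, 106 and 55 bases before its start. Windows were found for 57 of the 81 members and 20 of the 25 tested ones, which had 27 windows in all. No window was matched for COL1A1, COL5A2, COL6A1, COL9A3 or ITGA3. The cyclic AMP element was in 1 of these 27 windows (3.70%) and in 1.65% of all 35116 windows, the GC box in 20 (74.1%) and in 42.6% of all, the TATA box in 5 (18.5%) and in 10.7% of all, and the composite site in 1 (3.70%, ITGB5) and in 3.14% of all. The GC content of the windows of tested members had a median of 70.8%, beside 58.0% over all windows. The full set of windows was not limited to genes that reached the floor, so the sets compared also differ in expression. A match of letters is not a binding site, and its absence from a window says nothing of the factor.

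The genes that link integrins to the cytoskeleton or bind, process and cut the matrix were counted from lists. Over all tested genes, 31.4% were higher and 20.6% lower in R1881 with MEL-6 against R1881, 14.5% and 31.3% in R1881 against vehicle, and 17.2% and 20.8% in R1881 with MEL-6 against vehicle. Of 24 tested adaptor and focal adhesion genes, 8 were higher and 4 lower in R1881 with MEL-6 against R1881, 4 higher and 7 lower in R1881 against vehicle, and 2 higher and 4 lower in R1881 with MEL-6 against vehicle, with medians of 0.11, -0.06 and near 0. The shares for the first comparison (33.3% and 16.7%) and the second (16.7% and 29.2%) were near those over all tested genes. VCL, vinculin, which ties talin to actin, was at 35.9 ± 1.68 RPKM in R1881 with MEL-6 cells against 68.3 ± 2.37 RPKM in R1881 cells (-0.92 ± 0.051, adjusted p = 2.51e-07) and was higher in R1881 than in vehicle (0.76 ± 0.051, adjusted p = 1.1e-06). PARVA, a parvin of the complex around ILK, had -0.39 ± 0.07 and 0.64 ± 0.07 in these comparisons. FERMT1, the epithelial kindlin that activates integrins, had 0.61 ± 0.11 and -1.08 ± 0.11, and ZYX, zyxin, was higher in R1881 with MEL-6 than in vehicle by 0.67 ± 0.091.

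Of 10 tested basement membrane and laminin partner genes, 6 were higher and 1 lower in R1881 with MEL-6 against R1881, 1 higher and 7 lower in R1881 against vehicle, and 1 higher and 2 lower in R1881 with MEL-6 against vehicle, with medians of 0.41, -0.46 and -0.12. That is 60% higher and 10.0% lower, beside 31.4% and 20.6% of all tested genes, in the first comparison, and 10.0% and 70.0%, beside 14.5% and 31.3%, in the second. In the third it is 10.0% and 20.0%, beside 17.2% and 20.8%. SDC4, syndecan-4, a proteoglycan that acts with integrins on fibronectin, was at 17.2 ± 1.13 RPKM in R1881 with MEL-6 cells, 5.84 ± 0.159 RPKM in R1881 cells and 22.8 ± 0.741 RPKM in vehicle cells. Its differences were 1.48 ± 0.061 against R1881 and -1.88 ± 0.061 for R1881 against vehicle (adjusted p = 2.9e-08 and 3.92e-09). HSPG2, perlecan of the basement membrane, had 0.69 ± 0.17 and -0.79 ± 0.17 in the same comparisons. CD151, a tetraspanin bound to laminin receptors, was the 1 lower gene with MEL-6 (-0.39 ± 0.085), and PXDN, peroxidasin, which crosslinks type IV collagen, was higher in R1881 than in vehicle (0.65 ± 0.097).

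Of 18 tested genes of collagen synthesis and processing, 11 were higher and 4 lower in R1881 with MEL-6 against R1881, 2 higher and 5 lower in R1881 against vehicle, and 7 higher and 3 lower in R1881 with MEL-6 against vehicle, with medians of 0.26, -0.05 and 0.15. The higher shares were 61.1%, 11.1% and 38.9%, beside 31.4%, 14.5% and 17.2% of all tested genes, and the lower shares of 22.2%, 27.8% and 16.7% were near the 20.6%, 31.3% and 20.8% of all. CTAGE5, which helps export large collagen cargo from the endoplasmic reticulum, was at 19.3 ± 0.914 RPKM in R1881 with MEL-6 cells against 9.55 ± 0.242 RPKM in R1881 cells (0.98 ± 0.079) and was also above vehicle (1.06 ± 0.079). P4HA2, a prolyl hydroxylase subunit, was higher with MEL-6 than in R1881 by 0.85 ± 0.091, while its relative P4HA1 was lower by -0.45 ± 0.067. The proline isomerase PPIB and the hydroxylase subunit P4HB were the 2 genes higher in R1881 than in vehicle (0.68 ± 0.059 and 0.54 ± 0.075).

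Of 12 other integrin ligands, 6 were higher and 4 lower in R1881 with MEL-6 against R1881, 4 higher and 5 lower in R1881 against vehicle, and 2 higher and 1 lower in R1881 with MEL-6 against vehicle, with medians of 0.19, -0.19 and 0.08. The higher shares were 50%, 33.3% and 16.7% and the lower shares 33.3%, 41.7% and 8.3%, beside 31.4%, 14.5% and 17.2% higher and 20.6%, 31.3% and 20.8% lower among all tested genes. THBS1, thrombospondin-1, was at 3.92 ± 0.233 RPKM in R1881 with MEL-6 cells, 1.26 ± 0.0689 RPKM in R1881 cells and 1.52 ± 0.226 RPKM in vehicle cells, higher with MEL-6 than in R1881 by 1.33 ± 0.11. CYR61, a matricellular ligand of alphaV integrins, was lower with MEL-6 than in R1881 by -1.03 ± 0.11. Of 12 tested proteases and inhibitors, 8 were higher and 1 lower in R1881 with MEL-6 against R1881, 1 higher and 5 lower in R1881 against vehicle, and 3 higher and 1 lower in R1881 with MEL-6 against vehicle, with medians of 0.27, -0.14 and 0.14. The higher shares were 66.7%, 8.3% and 25.0% and the lower shares 8.3%, 41.7% and 8.3%, to be read beside the same shares of all tested genes. MMP16, a membrane-bound metalloprotease, was at 30.5 ± 3.85 RPKM in R1881 with MEL-6 cells, 10.0 ± 0.134 RPKM in R1881 cells and 39 ± 1.32 RPKM in vehicle cells (1.55 ± 0.081 and -1.90 ± 0.081). The inhibitor TIMP2 had 1.32 ± 0.092 and -1.31 ± 0.092, and ADAMTS1, a proteoglycan-cutting protease, had -1.25 ± 0.046 and 1.69 ± 0.046, with R1881 with MEL-6 against R1881 given first for each gene.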

How the data were processed

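The authors deposited 1 table with a value per gene and library for 9 LNCaP libraries of polyadenylated RNA, with coordinates on GRCh37. The submitters' processing notes name CASAVA 1.8 and that build (hg19). The deposited values were read as RPKM: sums of 350381 to 365815 per library are not those of counts, and in 34.2% of 3387 low genes all values were whole multiples (tolerance 0.002) of a step that differed between libraries by 1 factor, from which depths were estimated with GENCODE exon lengths. The plan allowed for this unit. The authors' read filters, gene models and counting were not given in the sources used here.

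The 13295 genes at or above 0.5 RPKM in 3 or more libraries entered a fit with limma 3.58.1 (R 4.3.3), run with an intensity trend on log2(RPKM + 0.5), all 9 libraries in 1 model of group means, two-sided, with Benjamini-Hochberg adjustment over all of them. Fold changes on this scale understate those of low genes. The fit was tested on simulated data. Errors are SD of levels and SE of log2 differences. P-values set a difference between groups against the spread between these replicates, pooled over the 3 groups and moderated across genes. The labels do not say whether the replicates came from separate passages or days. The members and the partner lists were chosen with earlier results of these data known. Every tested member is named, some of the members under the floor are not reported here, and of each list at most 3 called genes per direction and comparison, by size of change. Promoter windows came from RefSeq.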

Additional observations from a re-analysis of the deposited data

How the results depend on the processing

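Across 17 alternative settings, 1174 of 1262 values of single members kept their direction and side of the threshold, 53 lost the call, 20 gained one and 15 changed sign, none of the last called either way. Members lower in R1881 with MEL-6 than in R1881 numbered 1, but 3 without a floor on low values (COL12A1 and LAMA1 added), 3 with median-of-ratios scaling (ITGB1 and LAMC1 added), and 1 to 2 with a replicate left out. Members higher in R1881 than in vehicle numbered 3, but 5 without a floor (COL12A1 and LAMA1) and 5 with median-of-ratios scaling (COL4A5 and ITGB1), and 2 to 3 with a replicate left out. Members lower in R1881 with MEL-6 than in vehicle numbered 4, and 1 to 4 with a replicate left out, the lowest without vehicle replicate 1. The count higher in R1881 with MEL-6 than in R1881 was 16, and 13 to 17 with a replicate left out. For R1881 with MEL-6 above vehicle it was 10, and 7 to 11 with a replicate left out. Scaling by the upper quartile of each library gave 13 there. For R1881 below vehicle it was 10, and 9 to 11 with a replicate left out. The cause of these shifts was not tested, apart from the added members that only the fit without a floor includes.

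For R1881 against vehicle, median-of-ratios scaling gave log2 differences of 0.081 for COL6A2 and 0.049 for LAMB2, opposite in sign to the values reported. With a replicate left out, values whose sign changed ran from -0.079 to 0.041 for COL6A2, -0.11 to 0.20 for COL7A1, -0.047 to 0.042 for ITGB5 and -0.11 to 0.0022 for LAMB2 in R1881 against vehicle. For R1881 with MEL-6 against vehicle they ran from -0.27 to 0.020 for COL9A2, -0.13 to 0.036 for COL9A3 and -0.024 to 0.11 for ITGA5. The replicate numbers did not pair the libraries: deviations of same-numbered libraries correlated at -0.197 to 0.198, those of other pairs at -0.18 to 0.187. With a replicate block 14 members were higher in R1881 with MEL-6 than in R1881 (COL4A5 and ITGA5 lost) and 9 higher than in vehicle (COL1A1 lost). Depth limits COL16A1, COL9A3 and members under the floor, which rest on few estimated reads.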
